A study of Homo sapiens with 8 samples.

Results

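L1 elements and other repeat families are the peaks that NOP2/NSUN1 miCLIP-sequencing placed on a family reference, a consensus that stands for all copies of a repeat, instead of on a chromosome or a single transcript. Members were taken from the reference named in each row of the authors' deposited peak lists: names that start with L1, names of simple repeats, and any other family name that was not a chromosome, an unplaced sequence, a transcript, an rRNA or a tRNA. This rule found 43 of the 538 listed peaks, 26 of 251 for WT and 17 of 287 for C459A. L1 references held 34 of the 43 (21 in WT and 13 in C459A), simple repeats held 4, endogenous retroviruses 3, and the family reference of the U8 snoRNA 2. U8 is a snoRNA and no mobile element, and it entered only because the mapping gave it a family reference of its own.

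HEK293T cells, a human embryonic kidney line, received a plasmid encoding NOP2/NSUN1 with a FLAG tag, either WT or C459A, and were collected 40 h later without UV crosslinking. The C459A protein cannot release an RNA that it has bound covalently for methylation, and the WT protein can. Each construct had 2 FLAG IP libraries and 2 SMInput libraries, the SMInput being RNA from the same part of the membrane without immunoprecipitation. Both constructs were overexpressed beside the cells' own NOP2, and a mock IP was not among the libraries. The paper states that its mock IP yielded too little RNA for a library. For each peak the authors deposited 1 enrichment, the log2 ratio of IP to SMInput, and 1 adjusted p from Peakachu, their peak caller. Both cover the 2 replicates together, so no spread between replicates can be given, and the depth is unknown because the lists hold no read counts. Both lists keep only peaks with an enrichment of at least 2-fold and an adjusted p under 0.05, which means that an absent peak did not pass the thresholds and was not shown to be absent. WT and C459A were compared as descriptions, with no test.

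LINE-1 (L1) is the only family of human repeats that still copies itself without help from another element. Its RNA carries a 5′UTR with the promoter, ORF1 for an RNA-binding protein that coats the L1 RNA, ORF2 for an endonuclease and reverse transcriptase, and a 3′UTR that ends in an A tail. L1HS is the human-specific family that is still mobile, L1PA2, L1PA3 and L1PA6 are older primate families related to it, and L1PB2C belongs to a still older primate lineage. Since copies of all these families share sequence, a read can be placed on more than one reference, and peaks on different L1 references are not independent.

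The layout of L1HS was read from hg38, because the family references themselves were not used here. Intact copies were found by structure alone, as a long reading frame that follows another closely on the same strand. Of 189 such pairs of frames, 131 on 22 chromosomes had the same lengths, an ORF1 of 1017 bases, 63 bases between the frames and an ORF2 of 3828 bases. Over the 4908 bases from ORF1 to ORF2, without the UTRs, these copies were 99.6% identical to their consensus (median, with a lowest value of 97.8%). In that consensus ORF1 ran from base 907 to 1923, ORF2 from base 1987 to 5814, and the 3′UTR from base 5815 to 6019 before the A tail. The length before ORF1 differed among the copies, and 63 of the 122 copies in which it could be read had the one used. By how much the others differed is not given here. Places on L1HS are therefore approximate and assume that the authors' L1HS reference starts at the same base.

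L1HS, the mobile family, had 4 peaks in WT and none in C459A. Over the list, 82.5% of WT peaks overlapped a C459A peak. By log2 fold change the 4 ranked 141, 208, 214 and 229 of 251 in WT. Whether C459A peaks on L1HS fell just below the thresholds was not tested. Of the 4, 2 lay in ORF1 and 2 in ORF2 by midpoint, and none touched the 5′UTR or the 3′UTR, which make up 15.1% and 3.41% of the element. The ORF1 peak over bases 1395 to 1685 had a log2 fold change of 2.13 (adjusted p of 0.00690). Next to it, the peak over bases 1730 to 1935 had 2.10 (adjusted p of 0.0153) and ended 12 bases past the stop of ORF1, in the stretch between the frames. The strongest of the 4 covered bases 2905 to 3123 of ORF2, at 3.26 on the log2 scale (adjusted p of 0.00138). Bases 4977 to 5292, also in ORF2, had the lowest value, 1.78 (adjusted p of 0.0301). The 4 peaks covered 1032 bases, 42.8% of them A and 21.6% C, against 37.2% A and 22.4% C in the rest of the element. By region, A made up 40.1% of ORF1, 40.8% of ORF2 and 26.3% of the 5′UTR. The 2 ORF1 peaks held 37.8% and 38.8% A, below ORF1 as a whole. The 2 ORF2 peaks held 49.3% and 45.6% A, above ORF2 as a whole.

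**Figure D1:**
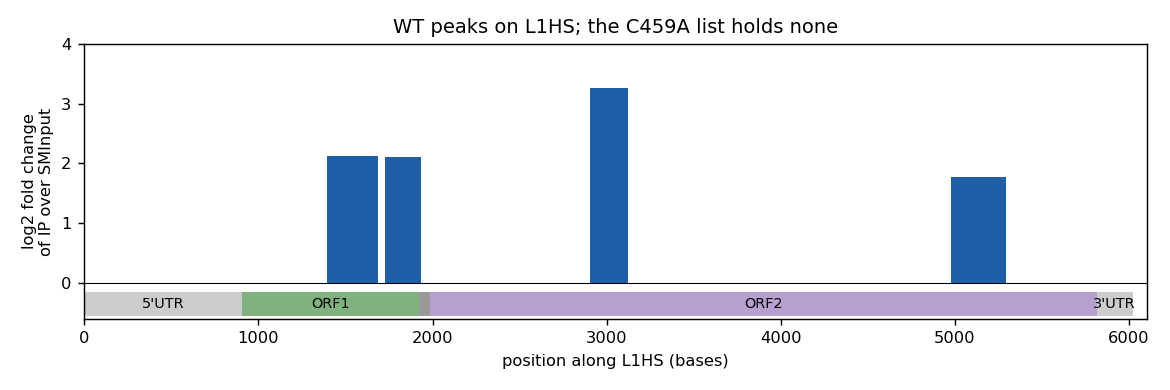
WT peaks on L1HS, with the position along the element in bases on the x axis and the log2 enrichment in IP relative to SMInput as bar height. The strip below marks the 5′UTR, ORF1, ORF2 and 3′UTR of intact hg38 copies. The bars, from 1.78 to 3.26, stand over ORF1 and ORF2, and 1 of them ends 12 bases past ORF1.

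Among L1 references the generic one, named L1, carried most peaks, 8 in WT and 7 in C459A. In WT they ran from base 1624 to base 5403 with log2 fold changes between 2.0 and 3.09 and a median of 2.41. The highest was the first, at bases 1624 to 1898 (3.09, adjusted p of 0.000967), and the lowest was at bases 2283 to 2695 (2.0, adjusted p of 0.00914). In C459A they ran from base 1593 to base 5361 with values between 1.10 and 2.04 and a median of 1.72. Again the first was the highest (bases 1593 to 1904, 2.04, adjusted p of 0.0211) and the third the lowest (bases 2324 to 2693, 1.10, adjusted p of 0.0332). WT peaks covered 2495 bases of this reference and C459A peaks 1945, and 1637 bases were in both. The longest stretch without a peak in either list, between the first and the last, was 486 bases from 3791 to 4276, and the bases before 1593 had none. The WT peak over bases 3470 to 3790 (2.13, adjusted p of 0.00909) was the only one of the 8 without a C459A counterpart.

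L1PREC1, another L1 reference, had 5 peaks in each list, all between bases 2641 and 5696. Its last WT peak, over bases 5399 to 5696, had the smallest adjusted p of the L1 peaks in either list (0.000129) at a log2 fold change of 3.40. The C459A peak there, over bases 5391 to 5609, had 1.92 (adjusted p of 0.0188). The lists differed at a peak each: WT had bases 4049 to 4237 (2.35, adjusted p of 0.0354), and C459A had bases 2641 to 2821 (2.30, adjusted p of 0.0218), the highest L1 value of its list and its only L1 peak without a WT counterpart. Numbers on L1PREC1, L1 and L1PB2C count along each reference, whose frames were not placed here, so equal numbers on different references need not be the same part of the element.

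On the L1PA families the peaks lay at the first bases of the reference. L1PA2 had the largest L1 fold change of the WT list, 3.62 on the log2 scale over bases 74 to 292 (adjusted p of 0.00639), and no C459A peak. L1PA3 had a peak in both lists, over bases 70 to 321 in WT (2.47, adjusted p of 0.00909) and over bases 100 to 327 in C459A (1.82, adjusted p of 0.0304). L1PA6 had 1 peak in WT only, over bases 3 to 228 (2.52, adjusted p of 0.0234). The sources used here do not give whether these references start at the 5′UTR or hold only the 3′ part of the element, so the 4 peaks were not assigned to a region. L1PB2C had 1 peak, in WT, over bases 5237 to 5519 (2.59, adjusted p of 0.0233).

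**Figure D2:**
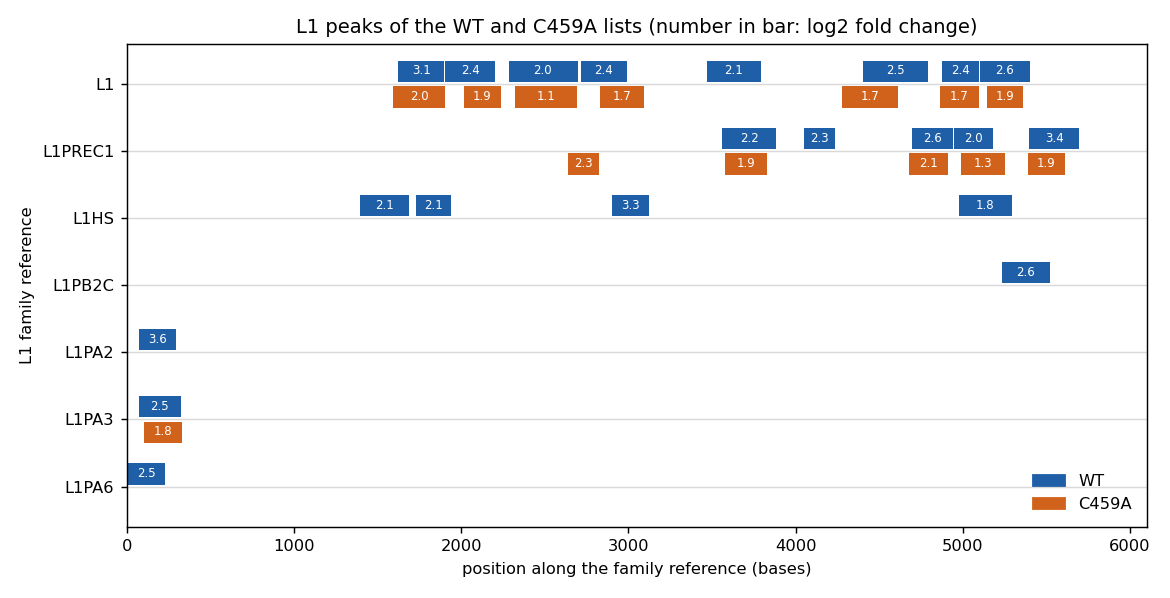
L1 peaks of both lists, with the position along each family reference in bases on the x axis, 1 reference per row, WT bars above C459A bars, and the log2 fold change written in each bar. All 7 references carry WT peaks, and only L1, L1PREC1 and L1PA3 carry C459A peaks.

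All 34 L1 peaks, 21 in WT and 13 in C459A, lay on the forward strand of their reference, the strand of the L1 RNA. Over all listed peaks, 94% of WT and 90.2% of C459A lay on the forward strand. These shares include chromosomes and unplaced sequences (79.4% and 65.8%), where the forward strand need not be that of the RNA. On RefSeq, tRNA and other transcript references all peaks were forward in both lists, so the L1 peaks did not differ from those. L1 peaks were wide, with a median width of 277 bases in WT and 233 in C459A, against 93 and 85 over all listed peaks. RefSeq transcript references, which include rRNA copies, also held wide peaks, with medians of 299.5 bases in WT and 279.5 in C459A. The narrowest L1 peak spanned 189 bases in WT and 181 in C459A, and 25.2% of the other WT peaks and 20.4% of the other C459A peaks were at least that wide. Enrichment was modest: 20 of 21 L1 peaks in WT and 13 of 13 in C459A lay below their list's median log2 fold change, 3.44 and 3.63. The L1 medians were 2.41 in WT (range of 1.78 to 3.62) and 1.87 in C459A (1.10 to 2.30). On RefSeq transcript references the medians were 2.24 in WT and 2.15 in C459A, also below those of the lists. At an adjusted p under 0.01, 14 of the 21 WT peaks were counted, against 74.9% of all WT peaks, and 2 of the 13 C459A peaks, against 80.1% of all C459A peaks. At least 4-fold enrichment was reached by 19 of the 21 in WT (86.5% over the list) and by 3 of the 13 in C459A (85% over the list).

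**Figure D3:**
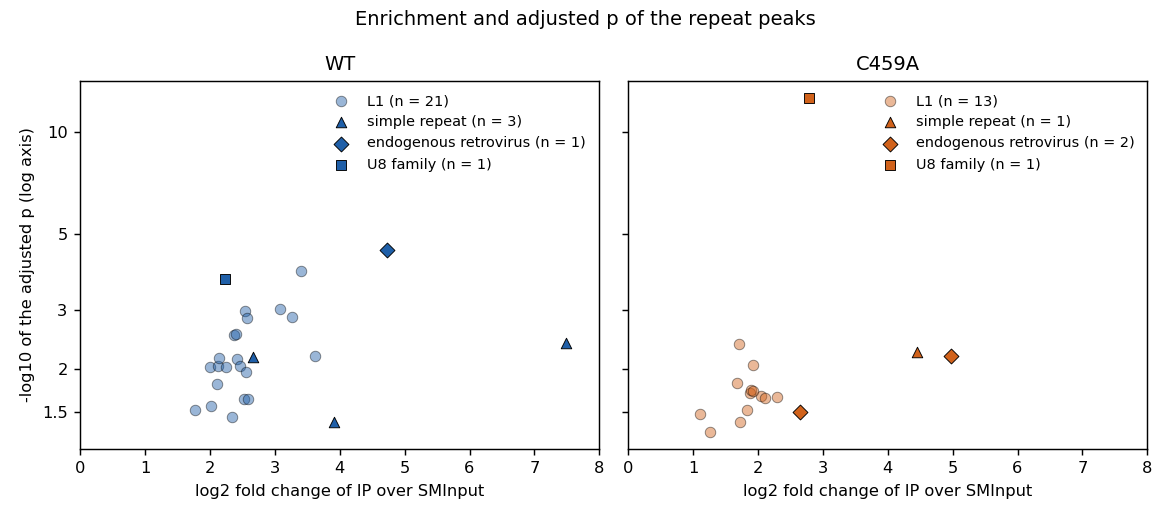
Each point is 1 repeat peak, WT left and C459A right, with the log2 enrichment in IP relative to SMInput on the x axis and −log10 of the authors' adjusted p on a log y axis; marker shapes give the class. The L1 points sit between 1.78 and 3.62 on the x axis in WT and between 1.10 and 2.30 in C459A. Most simple repeat and retrovirus points lie to their right.

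Where both lists held an L1 peak at the same place, enrichment was lower in C459A. By at least 1 shared base, 12 of the 21 WT L1 peaks (57.1%) overlapped a C459A peak, against 82.5% of all WT peaks, and 12 of the 13 C459A L1 peaks (92.3%) overlapped a WT peak, against 71.8% of all C459A peaks. With at least 4-fold enrichment in both lists the second share was 66.7% (2 of 3), against 67.2% of all C459A peaks. Each WT peak was paired with the C459A peak that shared most bases with it. The log2 fold change was lower in C459A in 12 of 12 L1 pairs, against 51.7% of all 207 pairs of the lists. The difference, C459A minus WT, had a median of -0.72 and ran from -1.48 to -0.35, and the median over the 195 other pairs was 0.05. The adjusted p was smaller in WT in 12 of 12 L1 pairs, against 34.3% of all pairs.

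The sign was the same on each of the 3 shared references. On the generic L1 reference the difference ran from -1.04 to -0.50 over 7 pairs, and on L1PREC1 from -1.48 to -0.35 over 4. The largest was at the end of L1PREC1, where an enrichment of 10.5-fold in WT stood beside 3.79-fold in C459A. At the first L1 peak 8.49-fold stood beside 4.12-fold, and on L1PA3 5.54-fold stood beside 3.54-fold. L1 was not alone in this direction. Pairs on RefSeq transcript references, which include the 45S and 28S rRNA copies, were lower in C459A in 34 of 38 cases (median of -0.55), while tRNA references were lower in 4 of 22 (median of 0.35) and other transcripts in 33 of 89 (median of 0.20). Among the 67 other pairs whose WT value lay in the range of the L1 pairs, 2.0 to 3.40, 25 were lower in C459A, with a median difference of 0.20. The pairs rest on 1 pooled value each, overlapping L1 references can share reads, and each construct was set against its own SMInput, so whether the IP or the SMInput differed cannot be told apart.

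**Figure D4:**
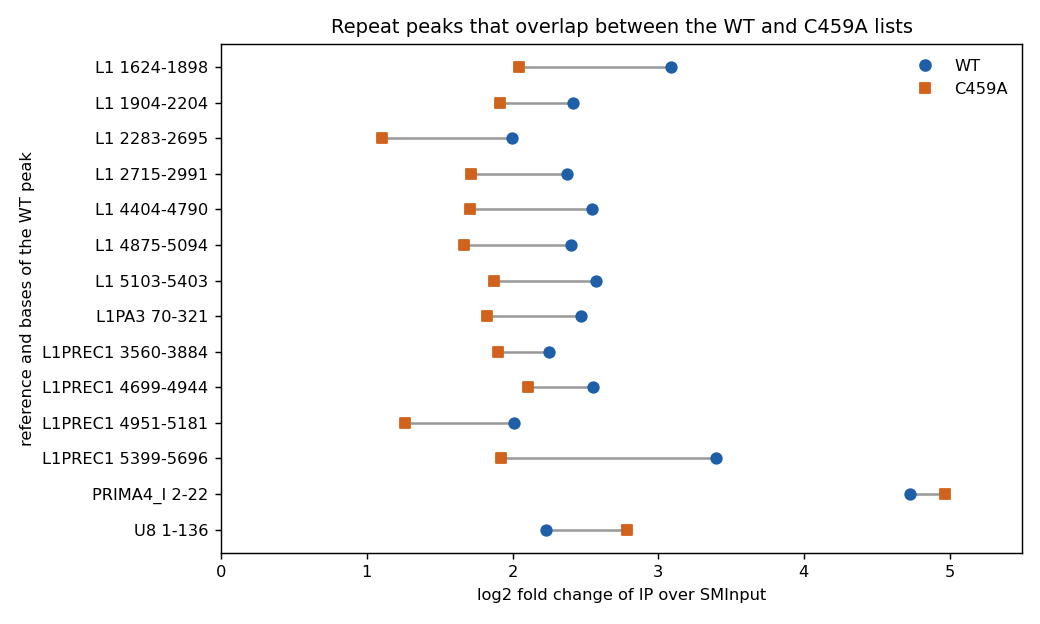
Repeat peaks that overlap between the lists, 1 per row, with the log2 enrichment in IP relative to SMInput on the x axis for WT (circle) and C459A (square). In the 12 L1 rows the C459A square lies left of the WT circle, and on PRIMA4_I and U8 it lies to the right.

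Endogenous retroviruses had short peaks on the opposite strand. They are old retrovirus insertions, and family names ending in _I, such as PRIMA4_I, stand for the internal part between the long terminal repeats (LTRs). PRIMA4_I had a peak on the reverse strand over bases 2 to 22 in WT, with a log2 fold change of 4.73 and the smallest adjusted p of the WT repeat peaks (3.14e-05). In C459A it covered bases 1 to 21 with 4.97 (adjusted p of 0.00640), so the 2 peaks shared 20 bases. HERV17, also called HERV-W, had a peak in C459A only, on the reverse strand over bases 1 to 22, with 2.64 (adjusted p of 0.0318). These 3 peaks and AAC_SimpleRepeat were the only repeat peaks on the reverse strand.

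The first bases of a retroviral internal part form the primer binding site, to which the 3′ end of a tRNA pairs to start reverse transcription, so the opposite strand of that site reads like the 3′ end of a tRNA. For HERV17 such a stretch was looked for in ERVW-1, the syncytin-1 envelope gene of the family. The last 18 bases of 414 nuclear tRNAs, CCA included, were set against the first exon of ERVW-1 (565 bases on chromosome 7 from 92477382 to 92477946, hg38, minus strand) with no gap. The closest complement, at 16 of 18 bases, was that of 5 arginine tRNAs, TRR-CCG1-1, TRR-CCG1-2, TRR-CCG1-3, TRR-TCG3-1 and TRR-TCG5-1. The median over all 414 was 10 bases, and the next family, TRR-CCT, reached 13. The stretch, at bases 538 to 555 of the exon (chr7:92477392-92477409), is shown beside the complement of the TRR-CCG1-1 end and that end itself, with capitals for the bases shared by the first 2 sequences and for the CCA of the last.
ERVW-1 exon 1: TGGCaACCACGAAcGGAC
Complement of TRR-CCG1-1: TGGCgACCACGAAgGGAC
TRR-CCG1-1 3′ end: gtcccttcgtggtcgCCA
All 5 of these tRNAs also had a listed peak on their own references in both lists, but so did tRNA-Arg-TCG-4-1, tRNA-Arg-TCG-2-1 and tRNA-Arg-TCG-1-1, which matched at 15, 14 and 13 bases, and the lists held 24 tRNA peaks in WT and 34 in C459A. On the 3 CCG references the log2 fold changes were 2.55, 5.53 and 5.70 in WT and 3.35, 5.92 and 6.14 in C459A. On tRNA-Arg-TCG-3-1 they were 5.97 and 7.81, and on tRNA-Arg-TCG-5-1 2.27 and 2.81. Whether reads of these tRNAs gave the HERV17 or PRIMA4_I peaks was not tested. Neither the HERV17 nor the PRIMA4_I reference sequence was compared, so the ERVW-1 stretch was not shown to be the bases of the HERV17 peak.

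Simple repeats are runs of a short unit, and their references had short peaks. A_SimpleRepeat, a run of A as in the tails of L1 and of mRNA, was the only one in both lists, over bases 283 to 312 in WT (log2 fold change of 7.48, the largest of the 43 members, adjusted p of 0.00411) and over bases 1 to 60 in C459A (4.44, adjusted p of 0.00560). The 2 peaks lay on the forward strand and shared no base. WT also had AG_SimpleRepeat over bases 2 to 60 of the forward strand (2.66, adjusted p of 0.00657) and AAC_SimpleRepeat over bases 3 to 58 of the reverse strand (3.90, adjusted p of 0.0401). Bases within a run of one unit are alike, so the place of a peak along such a reference tells little.

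The U8 reference, whose snoRNA is needed to process the large-subunit rRNAs, had a peak over bases 1 to 136 in both lists. Its log2 fold change was 2.23 in WT (adjusted p of 0.000198) and 2.79 in C459A (adjusted p of 2.30e-13). The SNORD118 transcript, the same RNA under its own reference, had 3.24 in WT and 4.06 in C459A over bases 1 to 134. The peak on its gene on chromosome 17 went the other way, at 4.30 in WT and 4.10 in C459A.

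Other repeat families were searched by name in both lists. No reference began with any of 16 names, among them Alu, FLAM and FRAM (short elements that use the L1 proteins to move), SVA, L2, MIR, HERVK, HERVH, THE1, LTR, MER and the satellites ALR, BSR, GSAT, HSAT and SAT. This says only that no peak on such a reference passed the thresholds of the lists.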

How the data were processed

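miCLIP-sequencing libraries of HEK293T cells (2 IP and 2 SMInput libraries for each of WT and C459A) were grouped by their titles. By the methods and the submitters' notes, the authors removed adapters with cutadapt, handled the UMI with fastp, mapped with awareness of repeat families to hg38 plus family consensus references, and called peaks with Peakachu. No source used here states the tool versions. The authors deposited, for each peak, a log2 fold change (IP against SMInput) and the −log10 of the adjusted p-value, with both replicates in 1 value. The −log10 values were turned back into adjusted p-values. Widths and overlaps were counted with both end bases included, on the same reference and strand. Only peaks within the thresholds are listed, so shares are given beside the same share of the whole list.

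Intact L1 copies were taken from hg38 as open frames of at least 3600 and 990 bases, less than 400 bases apart. The search and the overlap count were tested on simulated data. The sequences of the L1HS peaks are not reported here. tRNA genes came from RefSeq (GRCh38.p14, the primary coordinates of hg38). Of 443, the 414 with a recognisable B box on exactly 1 strand were used, and that box set the strand of the tRNA. ERVW-1 exons came from GENCODE release 44. Every member is named. The members, the lists and the comparisons were chosen with earlier results of these data known. The alternatives were an adjusted p under 0.01, a fold change of at least 4, overlap of at least 50% of both peaks, any peak on the same reference, and leaving out U8 or the generic L1 reference. Others were the best peak of each reference, and L1HS places by most bases or by a single copy. Computation used python 3.11.15, numpy 2.4.6, pandas 2.3.3, scipy 1.17.1 and matplotlib 3.10.9.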

Additional observations from a re-analysis of the deposited data

How the results depend on the processing

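Of 25 alternative values, 8 moved beyond their limit. It was 1.5 times for a count, the exact 95% binomial interval for a share and 1 SD for the difference. The median difference stayed negative under each setting for which it was computed, which did not include a fold change of at least 4. At an adjusted p under 0.01 that median rested on 2 pairs (-0.67). In C459A, 5 of the 17 repeat peaks had an adjusted p under 0.01 (80.1% over the list). A fold change of at least 4 was reached by 7 (85% over the list). The L1 peaks on the forward strand fell from 13 to 2 at an adjusted p under 0.01, because only 2 L1 peaks passed. All of those that passed were forward, so the strand share did not change. Under these thresholds in both lists, the share of WT L1 peaks with a C459A counterpart was 14.3% (2 of 14, against 82.4% of all WT peaks) and 15.8% (3 of 19, against 75.6%). The share of C459A L1 peaks with a WT counterpart was 100% at an adjusted p under 0.01 (2 of 2, against 67.4% of all C459A peaks) and 66.7% at a fold change of at least 4 (2 of 3, against 67.2%), where it no longer stood above the list. It was 100% when any peak on the same reference was enough (13 of 13). No share of all C459A peaks was computed for this setting. Every reference with a C459A L1 peak also had a WT peak, so the setting could give no other value. The median difference of C459A minus WT over L1 was -1.04 when the best peaks of the 3 shared references were compared. No paired analysis was possible because the deposited values pool both replicates, and for the same reason no replicate could be left out. Depth is not given, so the precision of single peaks is unknown.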
